A study of Drosophila melanogaster with 5 samples.

Results

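The glutamate receptors of the fly neuromuscular junction were followed in developing flight muscle through 6 genes: the receptor subunit genes GluRIIA, GluRIIB, GluRIIC, GluRIID and GluRIIE, and dlg1, which encodes the Discs large scaffold. They were taken by symbol from the deposited list of identifiers and symbols, and all 6 were found among the 17494 genes of the count table. RNA had been sequenced from the dorsolongitudinal flight muscles, the power muscles of the wing, of pupae staged to 48 h APF (after puparium formation). The M1BP RNAi group (n = 2 libraries, replicates 2 and 3) carried Mef2-GAL4, which drives expression in muscle, and UAS-M1BP RNAi. It came from a single RNAi line that the study describes as the weaker of its lines. According to the study, this driver can also act in some neurons, and Mef2 is expressed in the fat body too. The WT group (n = 3 libraries, replicates 1, 2 and 3) carried the Mef2-GAL4 driver and no RNAi transgene, so the driver was shared by both groups. Each library held the pooled muscles of several hand-dissected pupae, and the labels do not give their sex. The comparison asked how expression of these genes differed in muscle in which M1BP, a transcription factor that binds a core promoter motif, had been depleted.

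In Drosophila, motor neurons release glutamate onto the body muscles, and the muscle answers through ionotropic receptors clustered opposite the release sites. Each receptor contains GluRIIC, GluRIID and GluRIIE together with either GluRIIA or GluRIIB, and the alternative subunit sets how the channel desensitises. At the larval junction, Neto is the auxiliary subunit needed for receptor clustering, and Discs large, a membrane-associated guanylate kinase related to mammalian PSD-95, organises the postsynaptic membrane and acts on GluRIIB-containing receptors in particular.

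M1BP itself was counted first as a check of the labels. It had 409.8 and 455.6 normalised counts (reads divided by a size factor for library depth) in the M1BP RNAi libraries, against 666.3, 672.6 and 641.9 in the WT libraries. The groups did not overlap, and the log2 fold change (M1BP RNAi over WT) was -0.61 ± 0.14 (SE; adjusted p = 1.04e-04, DESeq2). The direction was the same in the 14 alternative settings, but the threshold used here was missed in 8 of them, the 5 that leave out a library among these. Library totals lay between 46504821 and 57514444 counts in M1BP RNAi and between 41676901 and 53556469 counts in WT. M1BP RNAi replicate 2 stood apart: 14107 genes had a count there, against 12963 in M1BP RNAi replicate 3 and 12059 to 12572 in WT, and its 9 testis markers summed to 129.6 TPM (reads per kilobase of exon, scaled to a fixed total per library), against 38.5 TPM in M1BP RNAi replicate 3 and 34.8 to 37.3 TPM in WT. One of them, Mst87F, had 623 and 33.4 normalised counts in M1BP RNAi and 13.1 to 18.1 in WT, and passed the test (log2 fold change 4.33 ± 1.09, SE; adjusted p = 8.00e-04, DESeq2), but not without that library, nor in 7 other alternative settings. Another testis marker, bol, alone gave 36.0 and 34.4 TPM in M1BP RNAi and 33.4 to 35.7 TPM in WT (log2 fold change -0.255). It made up most of the sum in every library but M1BP RNAi replicate 2. The sums therefore understate how far that library stood apart in the other testis markers. The 7 muscle markers summed to 31282 and 31543 TPM in M1BP RNAi and to 25029 to 30608 TPM in WT, with all 7 counted in every library. On normalised counts the direction was the other: 6 of the 7 had a negative log2 fold change, with a median of -0.24 beside 0.02 over all genes tested. TPM are scaled to a fixed total, so these sums describe each library and do not compare the groups. The 8 neuron markers summed to 28.8 and 29.6 TPM in M1BP RNAi and to 21.4 to 25.9 TPM in WT. None of them was at 0 in any library. One of them, Snap25, alone gave 6.76 and 10.5 TPM in M1BP RNAi and 0.93 to 2.24 TPM in WT. The other 7 neuron markers had negative log2 fold changes, so their sum does not show more nerve RNA in M1BP RNAi.

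No receptor subunit gene and no dlg1 change passed the test. Calls needed a 1.5-fold difference and an adjusted p no greater than 0.001 in the DESeq2 Wald test, and 0 of the 6 members were called, against 6.75% of the 11282 genes tested (2.98% lower and 3.78% higher in M1BP RNAi). By edgeR, 0 of the 5 members with a value were called, in a fit that called only 8 of 9833 genes. At an unadjusted p under 0.05, 2 of the 6 (GluRIIC and GluRIIE) were counted, against 35.7% of genes tested. All 6 had a negative log2 fold change, with a median of -0.82 beside 0.02 over all genes tested, but the sign of GluRIIA, GluRIIB and dlg1 turned in some alternative settings. The data split the members into a very abundant scaffold gene whose level was measured tightly, and 5 receptor genes with few reads and wide intervals.

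**Figure D1:**
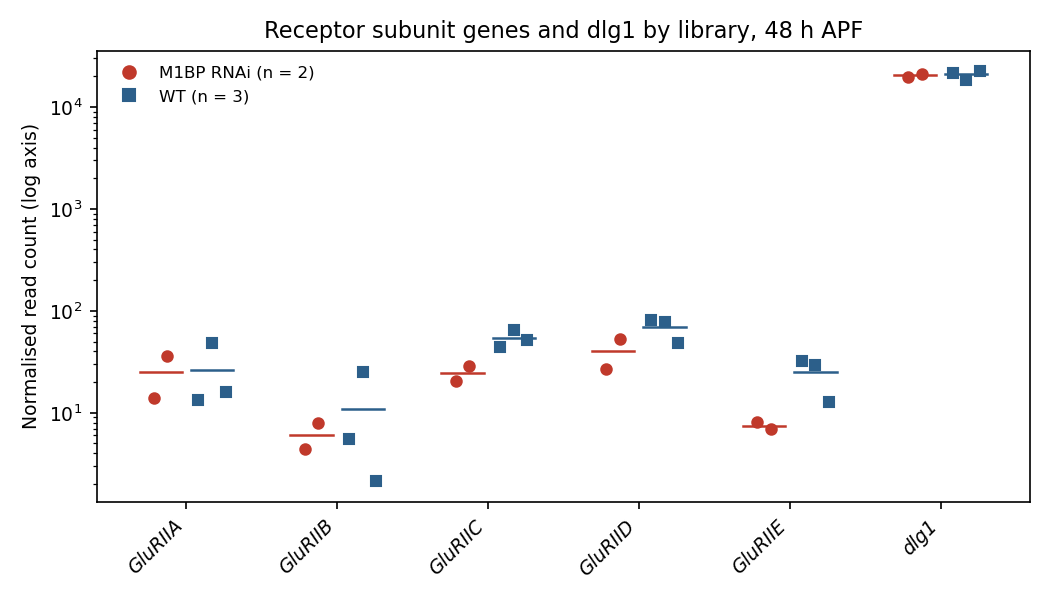
Normalised read counts (log axis) of the 6 genes, with circles for the 2 M1BP RNAi libraries, squares for the 3 WT libraries and a line at each group mean. The 5 receptor subunit genes lie between 2.13 and 81.9 normalised counts and dlg1 between 18358 and 22403. The M1BP RNAi libraries lie below all WT libraries for GluRIIC and GluRIIE, as for 21.9% of all genes tested.

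The shared subunits are described first, since every receptor needs them. GluRIIC lies at chr2L:914086-917805 on the plus strand (dm6) in 11 exon blocks and 3004 exon bases, with 1 annotated transcript. Its raw counts were 28 and 29 in the M1BP RNAi libraries, against 40, 54 and 49 in the WT libraries. After division by the size factors these became 20.5 and 28.5 in M1BP RNAi and 44.3, 64.3 and 52.2 in WT. Both M1BP RNAi libraries were lower than all WT libraries, a pattern that 21.9% of all genes tested also showed. Its log2 fold change was -1.14 ± 0.49 (SE), with a 95% interval of -2.10 to -0.18, but the adjusted p was 0.0732 in DESeq2 and 0.113 in edgeR. GluRIIC was therefore not called. It was the member measured with the smallest standard error among the receptor genes.

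GluRIIE and GluRIID lie next to each other on the minus strand of chromosome arm 3R, GluRIIE at chr3R:20644154-20648716 (13 exon blocks, 3444 exon bases) and GluRIID at chr3R:20648595-20652450 (14 exon blocks, 3080 exon bases), each with 1 annotated transcript. GluRIIE had 11 and 7 reads in M1BP RNAi, against 29, 25 and 12 reads in WT. Its normalised counts were 8.04 and 6.87 in M1BP RNAi, and 32.1, 29.8 and 12.8 in WT. The M1BP RNAi values lay close together below the WT values, as for 21.9% of all genes tested, although WT replicate 3 came near them. At -1.73 ± 0.83 (SE; 95% interval -3.36 to -0.11), its log2 fold change was the most negative of the members, and its adjusted p was 0.112 in DESeq2 and 0.119 in edgeR. GluRIIE was not called.

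GluRIID, the shared subunit with the highest mean level, had 37 and 54 reads in M1BP RNAi, against 74, 66 and 45 reads in WT. Its normalised counts were 27.0 and 53.0 in M1BP RNAi and 81.9, 78.6 and 47.9 in WT. The groups overlapped, with M1BP RNAi replicate 3 above WT replicate 3. GluRIID had a log2 fold change of -0.80 ± 0.57 (SE; 95% interval -1.91 to 0.31; adjusted p = 0.309, DESeq2). It was -0.38 without M1BP RNAi replicate 2 and -1.35 without M1BP RNAi replicate 3. The exons of GluRIID and GluRIIE share 122 bases on the same strand, and those of GluRIIE share 126 bases with Lrrk on the opposite strand, which averaged 633.9 normalised counts beside 17.9 for GluRIIE. Whether counting used the strand is not given in the sources used here, so reads in these stretches could not be assigned with certainty, and their part in the values was not tested.

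The alternative subunits GluRIIA and GluRIIB form a tandem pair on chromosome arm 2L, at chr2L:5555072-5558994 (12 exon blocks, 3253 exon bases) and chr2L:5559342-5563502 (13 exon blocks, 2949 exon bases), both on the plus strand with 347 bases between them and 1 annotated transcript each. GluRIIA had 19 and 37 reads in M1BP RNAi, against 12, 41 and 15 reads in WT. The normalised counts were 13.9 and 36.3 in M1BP RNAi and 13.3, 48.8 and 16.0 in WT. One library of each group, M1BP RNAi replicate 3 and WT replicate 2, was high and the others were low, so that the spread within groups exceeded the difference between them. The log2 fold change was -0.05 ± 0.97 (SE), and its 95% interval reached -1.95 to 1.84, that is, folds of 0.258 to 3.59 (adjusted p = 0.976, DESeq2). It turned positive without WT replicate 2 (0.765) and without M1BP RNAi replicate 2 (0.497). GluRIIA shares 66 exon bases with CG14017 on the same strand, a gene that averaged 8.59 normalised counts.

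GluRIIB, the least counted of the 6, had 6 and 8 reads in M1BP RNAi, against 5, 21 and 2 reads in WT. Its normalised counts were 4.38 and 7.85 in M1BP RNAi and 5.53, 25.0 and 2.13 in WT. The M1BP RNAi values fell inside the WT range, and the mean of WT rested on its replicate 2. The 2 reads of WT replicate 3 carry an exact 95% Poisson interval of 0.24 to 7.23 reads, which covers counting error only. The log2 fold change was -0.83 ± 1.43 (SE; 95% interval -3.63 to 1.96; adjusted p = 0.718, DESeq2), and it was 0.66 without WT replicate 2. GluRIIB was removed from the edgeR fit by its filter on low counts.

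Because a receptor takes either GluRIIA or GluRIIB, their balance was also compared within each library, where the size factor has no effect. GluRIIA made up 76.0% and 82.2% of the reads of the pair in M1BP RNAi, against 70.6%, 66.1% and 88.2% in WT. The exact 95% binomial (Clopper-Pearson) intervals were 54.9% to 90.6% and 68.0% to 92.0% in M1BP RNAi, and 44.0% to 89.7%, 53.0% to 77.7% and 63.6% to 98.5% in WT, and cover counting error only. Counts of GluRIIA exceeded those of GluRIIB in all 5 libraries, and the intervals of all libraries overlapped. Per kilobase of exon the share was 77.5% ± 4.65 (SD, n = 2) in M1BP RNAi and 73.2% ± 12.3 (SD, n = 3) in WT. The difference of 4.26 percentage points was smaller than the spread between WT libraries (p = 0.800, exact two-sided permutation test), in a design whose smallest possible p is 0.2.

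**Figure D2:**
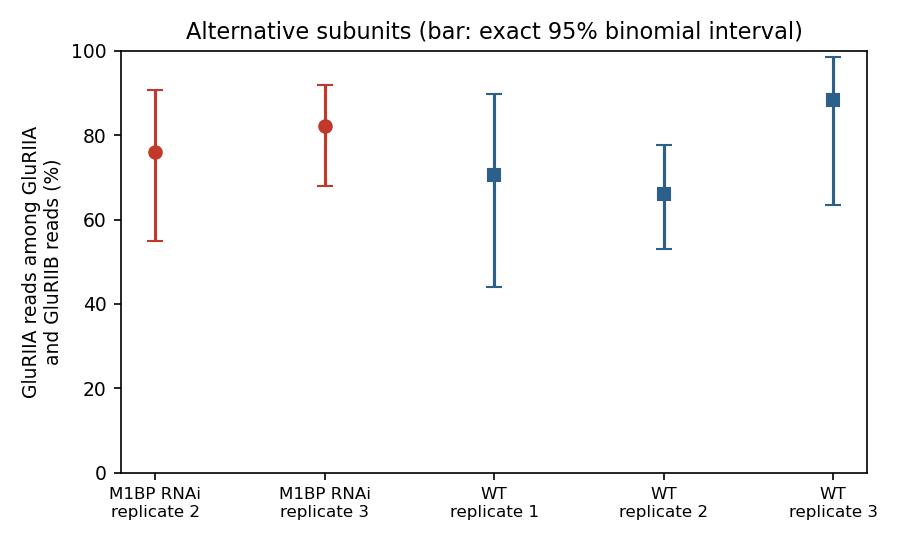
GluRIIA reads as a percent of GluRIIA plus GluRIIB reads in each library, M1BP RNAi at the left and WT at the right, with exact 95% binomial intervals. The shares lie between 66.1% and 88.2%, and the interval of each library overlaps those of all the others.

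The ratio of alternative to shared subunits, as log2 of GluRIIA plus GluRIIB over the mean of GluRIIC, GluRIID and GluRIIE per kilobase, was -0.05 and 0.53 in M1BP RNAi and -1.50, 0.34 and -1.12 in WT. WT replicate 2 lay among the M1BP RNAi values, so the groups overlapped. Summed over the 5 receptor genes, the raw counts were 101 and 135 reads in M1BP RNAi and 160, 207 and 123 reads in WT. Scaled to library totals this was 1.76 and 2.90 CPM in M1BP RNAi and 3.43, 4.97 and 2.30 CPM in WT. The sums again overlapped, with M1BP RNAi replicate 3 above WT replicate 3.

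In contrast to the receptor genes, dlg1 was abundant and its level was measured closely. It spans chrX:11369665-11409776 on the plus strand, in 27 exon blocks and 11505 exon bases, and has 21 annotated transcripts, which gene counts do not tell apart. Its raw counts were 27196 and 21420 in M1BP RNAi, against 19633, 15422 and 21047 in WT. The normalised counts were 19868 and 21030 in M1BP RNAi and 21731, 18359 and 22403 in WT. Both M1BP RNAi libraries fell inside the WT range. The log2 fold change was -0.03 ± 0.12 (SE; adjusted p = 0.908, DESeq2), and the 95% interval of -0.27 to 0.22 spans folds of 0.829 to 1.16, short of the 1.5-fold minimum in either direction. The sign was not stable, and turned positive in 5 alternative settings with values no greater than 0.064.

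Since dlg1 is on the X chromosome and the sex of the pupae is not given, the male-specific noncoding RNA lncRNA:roX1 was read beside it. It had 9618 and 5900 normalised counts in M1BP RNAi and 14.4, 4994 and 1062 in WT. Both M1BP RNAi libraries lay above all WT libraries, which were themselves far apart from each other. The median log2 fold change of the 1824 tested genes on the X chromosome was 0.00. With the roX1 level as a covariate the log2 fold change of dlg1 was 0.06. It was -0.62 for GluRIIA, -1.45 for GluRIIB, -1.34 for GluRIIC, -0.65 for GluRIID and -1.55 for GluRIIE. In that fit 0 of the 5 members with an adjusted p were called. The part of sex in the differences between the groups was not tested.

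Levels of different genes were compared per exon length, in TPM. TPM set genes side by side within a library, and normalised counts were used between libraries. The mean of GluRIID was 0.50 TPM in M1BP RNAi and 0.72 TPM in WT, and that of GluRIIC was 0.31 TPM in M1BP RNAi and 0.57 TPM in WT. GluRIIA averaged 0.29 TPM in M1BP RNAi and 0.26 TPM in WT, GluRIIE 0.084 TPM in M1BP RNAi and 0.23 TPM in WT, and GluRIIB 0.079 TPM in M1BP RNAi and 0.12 TPM in WT. The order of the group means was thus GluRIID, GluRIIC, GluRIIA, GluRIIE and GluRIIB in both groups. Neighbours in that order were not separated beyond their spread: GluRIIC was above GluRIID in WT replicate 3, GluRIIA above GluRIIC in M1BP RNAi replicate 3, GluRIIE above GluRIIA in WT replicate 1, and GluRIIB above GluRIIE in M1BP RNAi replicate 3. By mean TPM, the 5 receptor genes ranked above 21.8% to 38.7% of the genes with a read, and dlg1 above 90.3%. The dlg1 level was 68.8 ± 2.18 TPM (SD, n = 2) in M1BP RNAi and 57.3 ± 4.27 TPM (SD, n = 3) in WT, which was 20.2 to 73.0 times the summed TPM of the 5 receptor genes in the same library. On the TPM scale both M1BP RNAi libraries were above the WT libraries for dlg1, unlike on the normalised count scale.

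**Figure D3:**
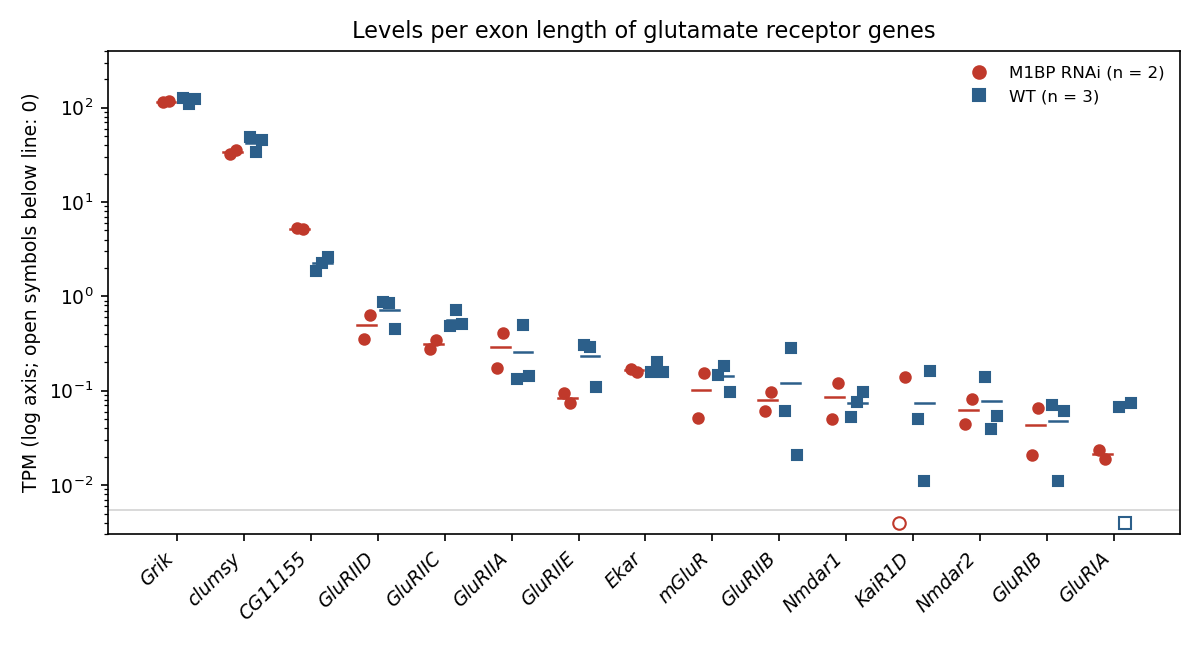
TPM (log axis) of the 5 GluRII genes and of 10 other glutamate receptor genes, ordered by mean level, with circles for M1BP RNAi (n = 2), squares for WT (n = 3), lines for group means where no library was at 0, and open symbols below the grey line for values of 0. The kainate-type genes Grik and clumsy lie at 32.1 TPM or more in every library, whereas the GluRII genes lie below 1 TPM.

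The GluRII genes were not the glutamate receptor genes with the most reads in this tissue. Among the 10 other glutamate receptor genes, Grik, clumsy and CG11155, all kainate-type receptor genes, had the highest levels, and they are named here after their values were seen. Grik reached 114.0 and 117.0 TPM in M1BP RNAi, and 127.1, 110.4 and 123.1 TPM in WT. That was 41.9 to 118 times the summed TPM of the 5 GluRII genes, depending on the library. For clumsy the ratio was 12.8 to 36.6, and for CG11155 it was 0.864 to 5.51. The other 7 genes, among them the NMDA receptor genes Nmdar1 and Nmdar2 and the metabotropic receptor gene mGluR, had a mean level under 0.2 TPM, in the range of the GluRII genes or below it. Which cells of the dissected tissue carried these transcripts was not tested.

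Of these 10 genes 9 were tested and 0 were called by DESeq2 or by edgeR, against 6.75% of all genes tested in DESeq2 and 8 of 9833 in edgeR. At an unadjusted p under 0.05 there were 3, against 35.7% of genes tested. The median log2 fold change was -0.40 beside 0.02 over all genes tested. CG11155 had 837 and 897 normalised counts in M1BP RNAi, against 361, 438 and 570.5 in WT. It shares 90 exon bases with CG32017 on the opposite strand, which averaged 94.5 normalised counts. The log2 fold change of 0.93 ± 0.26 (SE) had an adjusted p of 2.73e-03 in DESeq2, short of the threshold. At an adjusted p of at most 0.05 without a fold minimum, CG11155 counted as higher, as did 14.7% of genes tested, and clumsy counted as lower (log2 fold change -0.62 ± 0.24, SE; adjusted p = 0.0408, DESeq2), as did 9.72% of genes tested. Grik had a log2 fold change of -0.35 ± 0.15 (SE; adjusted p = 0.0682, DESeq2).

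Neto, the auxiliary subunit that larval receptors need for clustering, had 167 and 229 normalised counts in M1BP RNAi, against 231, 243 and 256.5 in WT. The M1BP RNAi libraries were lower without overlap, as for 21.9% of genes tested, though M1BP RNAi replicate 3 nearly met WT replicate 1. Its log2 fold change was -0.31 ± 0.25 (SE; adjusted p = 0.404, DESeq2). Per exon length, Neto had 0.372 to 0.852 times the summed TPM of the 5 receptor genes.

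Beyond the receptors, 21 genes for postsynaptic partners were examined. They were Neto, Synd, the anchoring and signalling proteins Pak, rtGEF and dock, and the adhesion proteins Nlg1, Nlg2 and Fas2. Also listed were the cortical proteins cora, alpha-Spec, beta-Spec and hts, and the scaffolds scrib, veli, metro and Grip. The dystrophin complex genes Dys and Dg, and fz2, Syt4 and gbb, which act in Wnt and retrograde signalling, completed the list. All 21 were tested. Of these 2 were called lower and 0 higher in M1BP RNAi by DESeq2, against 2.98% and 3.78% of all genes tested. In edgeR 0 of them were called, beside 8 of 9833 genes. At an unadjusted p under 0.05 there were 8, against 35.7% of genes tested, and the median log2 fold change was -0.22. The genes that fell were Syt4 and veli.

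**Figure D4:**
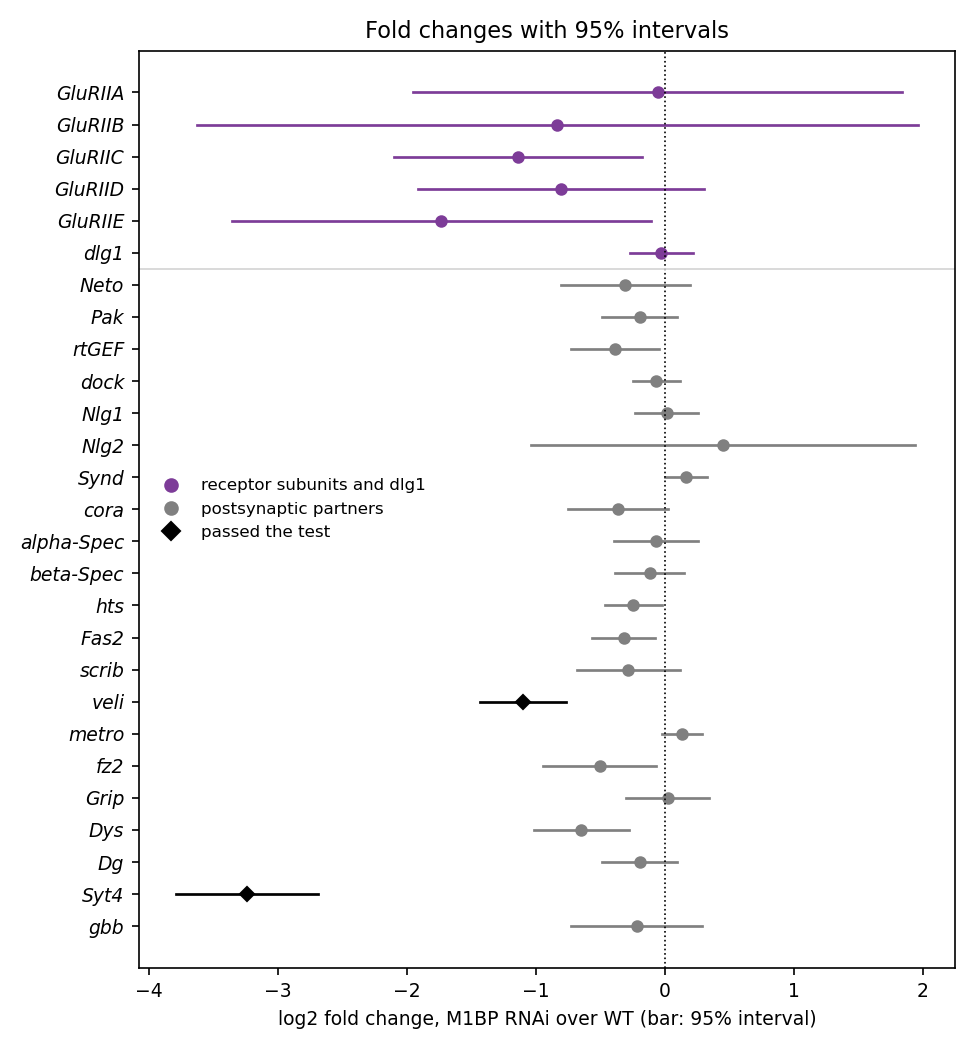
Log2 fold changes of M1BP RNAi over WT with 95% intervals for the 6 genes (above the grey line) and 21 postsynaptic partners (below it), with diamonds for genes that passed the test. The intervals of the receptor genes are wide, that of dlg1 runs from -0.27 to 0.22, and Syt4 at -3.24 and veli at -1.10 are the diamonds.

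Syt4 encodes synaptotagmin 4, a postsynaptic calcium sensor that acts in retrograde signalling from larval muscle to nerve. It had 137 and 221 normalised counts in M1BP RNAi, against 1532, 1518 and 1998 in WT. The WT libraries were all far above the M1BP RNAi libraries, and the log2 fold change was -3.24 ± 0.28 (SE; adjusted p = 1.35e-28, DESeq2), a 9.45-fold lower level. The edgeR estimate was close to it at -3.23, with an adjusted p of 3.68e-03 that missed the threshold. Without M1BP RNAi replicate 2 the log2 fold change was -2.92 and the call held.

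The PDZ protein gene veli encodes a small adaptor of the Lin-7 family, which binds membrane-associated guanylate kinases. It had 840 and 1020 normalised counts in M1BP RNAi, against 1856, 1875 and 2236 in WT. The groups were separated by more than their spread, with a log2 fold change of -1.10 ± 0.17 (SE; adjusted p = 3.01e-09, DESeq2; 0.0109 in edgeR). The call held in each fit without 1 library. The dystrophin gene Dys, named after its values were seen, did not pass the test, with a log2 fold change of -0.65 ± 0.19 (SE; adjusted p = 4.54e-03, DESeq2).

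**Figure D5:**
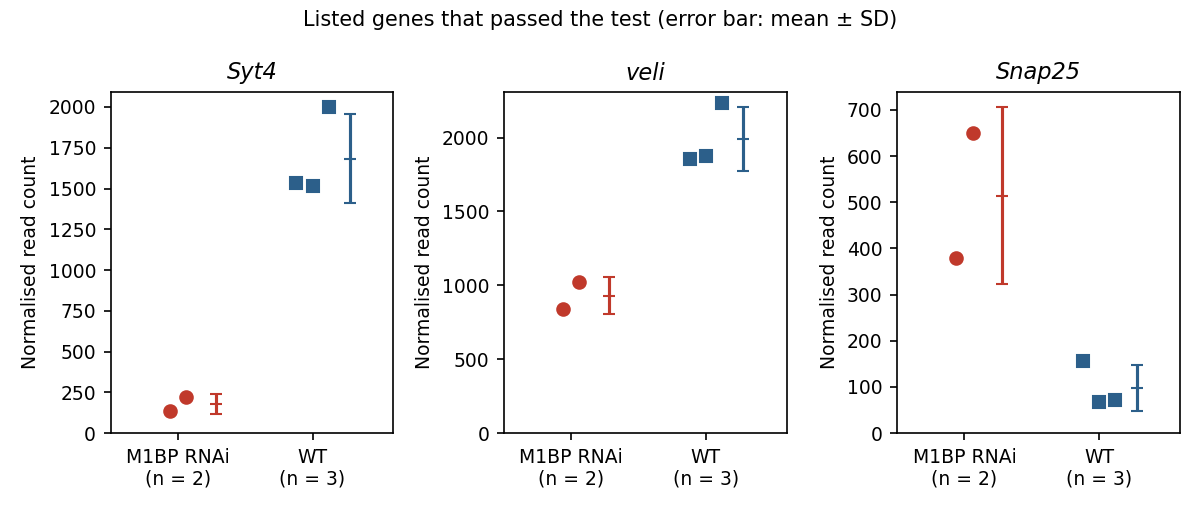
Normalised read counts of Syt4, veli and Snap25 in M1BP RNAi (circles, n = 2) and WT (squares, n = 3), with the mean ± SD beside the points and axes from 0. Syt4 and veli are lower and Snap25 is higher in both M1BP RNAi libraries than in every WT library.

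A list of possible regulators of the receptors or of Discs large was also examined. It held the transcription factors lola and Mef2, the translational repressors pum, nos and brat, the kinase genes Pka-C1 and CaMKII, and Arc1. Whether each of them acts on the receptors or on Discs large in this tissue was not examined. Of the 8 genes 7 were tested and 0 were called by DESeq2 or edgeR, against 6.75% of all genes tested in DESeq2 and 8 of 9833 in edgeR. At an unadjusted p under 0.05 there were 4, against 35.7% of genes tested, and the median log2 fold change was -0.21.

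Motor nerve endings could come with the dissected muscle, so markers of neurons were read beside the receptor genes. Of 8 neuron markers 1 was called, in the higher direction, against 3.78% of all genes tested called higher and 6.75% called in either direction. It was Snap25, a gene for a SNARE protein of vesicle release. It had 379 and 650.0 normalised counts in M1BP RNAi, against 156, 66.7 and 72.4 in WT. It rose by a log2 fold change of 2.39 ± 0.52 (SE; adjusted p = 7.75e-05, DESeq2; 0.0327 in edgeR), and the call was lost without WT replicate 2, WT replicate 3 or M1BP RNAi replicate 3. The other 7 markers had negative log2 fold changes and none was called. Among them Syx1A had a log2 fold change of -0.485 (adjusted p = 3.69e-03, DESeq2). At an adjusted p of at most 0.05 without a fold minimum it counted as lower, as did 9.72% of genes tested. Syx1A shares 447 exon bases with eIF4EHP on the same strand, a gene that averaged 2372 normalised counts. VGlut, the vesicular glutamate transporter gene of the motor neurons themselves, had 7.31 and 15.7 normalised counts in M1BP RNAi and 6.64, 2.38 and 43.6 in WT, and its groups overlapped. The part of nerve RNA in the receptor values was not tested, and in such bulk samples fewer cells of a type and less RNA per cell cannot be told apart.

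Finally, the genes whose profile over the 5 libraries was most like that of each member were listed, by the root mean square difference of log2 values centred on each gene, among 8265 genes with a mean of at least 50 normalised counts. This is a description over 5 libraries, and was made for the 4 members with a mean of at least 20 normalised counts. For GluRIIC the nearest genes were Smyd3 (difference 0.060) and kon (0.066). Smyd3 had 409 normalised counts on average in M1BP RNAi and 868 in WT (log2 fold change -1.09 ± 0.24, SE; adjusted p = 1.09e-04, DESeq2), and kon, the transmembrane proteoglycan gene kon-tiki of muscle attachment, 579 in M1BP RNAi and 1334 in WT (-1.20 ± 0.27, SE; adjusted p = 8.81e-05, DESeq2). Since they were chosen for their likeness to GluRIIC, the size of their differences is a description and supports nothing about GluRIIC. Both calls were lost in edgeR and, among other settings, without M1BP RNAi replicate 2, where the log2 fold changes were -0.88 for Smyd3 and -0.98 for kon. For GluRIID the nearest were ths (0.10) and pdm3 (0.11), for dlg1 Mal-B2 (0.019) and CHES-1-like (0.022), and for GluRIIA loh (0.23) and comt (0.32), a likeness less close than for the others. Like GluRIIA, loh was high in M1BP RNAi replicate 3 (141 normalised counts, beside 43.8 in replicate 2) and in WT replicate 2 (155, beside 37.6 and 39.4 in WT replicates 1 and 3).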

How the data were processed

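The authors deposited whole-number counts of uniquely aligned reads per gene over its exons (dm6), with the exon length of each gene. The submitters' processing notes name bcl2fastq 2.17.1.14, Subread 2.0.3, featureCounts and DESeq2. The aligner, annotation release and strand setting are not given in the sources used here. The labels and the study's methods name different stranded mRNA kits. A deposited table of the authors' own comparison, which holds fold changes and p-values, was used only to pair identifiers with symbols. All count columns could be mapped to a sample (0 were not).

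Counts were tested in R 4.3.3 with DESeq2 1.42.0 (Wald test, default settings, all 5 libraries, no covariate, Benjamini-Hochberg adjustment over the 11282 genes with an adjusted p), with the study's own limits for a call (adjusted p no greater than 0.001, at least 1.5-fold). Normalised counts are counts over the size factor, and 95% intervals are the estimate ± 1.96 SE. TPM was computed from counts and exon lengths. The script was tested on simulated data. Coordinates count from 1, and the annotation used for transcript numbers (BDGP6, the dm6 sequence) held the same start and end for all 6 members. Its symbol table also matched rtGEF, which it spells RtGEF.

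Alternatives were edgeR 4.0.16 (quasi-likelihood), TMM size factors, at least 10 counts in 2 libraries, independent or Cook's filtering off, a threshold of 0.05, the mitochondrial genome left out, the roX1 level as a covariate, the replicate number as a block, and the omission of single libraries. Without 1 M1BP RNAi library, the lone one left is assumed to vary like the WT libraries. Named genes were the 6 members, M1BP, Neto, called genes of the lists and the 2 genes most like each member with a mean of at least 20 normalised counts. Other genes were named after their values were seen. The members and lists were chosen with earlier results of these data known. The labels do not say that replicates came from separate cultures or crosses, so p-values measure the spread between these libraries.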

Additional observations from a re-analysis of the deposited data

How the results depend on the processing

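The count of members called was 0 in all 14 alternative settings, and GluRIIC, GluRIID and GluRIIE had a negative log2 fold change in each, with ranges over the fits without 1 library of -1.379 to -0.899 for GluRIIC, -1.352 to -0.377 for GluRIID and -2.052 to -1.511 for GluRIIE. Genes called over the whole table, 762 in DESeq2, numbered 8 in edgeR, 2750 at an adjusted p of 0.05 without a fold minimum, 302 with the roX1 covariate, and 319 to 937 when single libraries were left out. In edgeR, 0 postsynaptic partners and 0 neuron markers were called, and at the threshold of 0.05 there were 4 partners, 2 other glutamate receptor genes and 2 neuron markers. With single libraries left out, 2 to 3 partners, 0 to 1 receptor regulators, 0 to 1 other glutamate receptor genes and 0 to 1 neuron markers were called. Log2 fold changes then ranged from -0.895 to 0.765 for GluRIIA, -1.326 to 0.662 for GluRIIB and -0.122 to 0.027 for dlg1, and the difference in the GluRIIA share from -0.391 to 11.25 percentage points. The dlg1 value was 0.064 with the roX1 covariate. The cause of the sign changes was not tested.

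With the replicate number as a block, 315 genes and 0 members were called, and dlg1 had a log2 fold change of 0.011. Correlations of deviations from the group means over 8265 genes were -0.31 between the libraries numbered 2 and -0.118 between those numbered 3. With 2 M1BP RNAi libraries the deviations of one mirror those of the other. WT replicate 2 therefore had 0.31 with M1BP RNAi replicate 3, and these values are not independent. They cannot decide whether samples were paired, and the shared numbers were not taken to pair them.

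Without the mitochondrial genome in the TPM total, the WT means were 0.791 TPM for GluRIIC, 1.01 TPM for GluRIID and 79.5 TPM for dlg1. The receptor genes had 2 to 74 reads per library, and their 95% intervals reach beyond a 1.5-fold difference. How far depth, the spread between libraries and the number of libraries each set these intervals was not tested.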
